A study of Mus musculus with 292 samples.

Results

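The heat shock and chaperone genes of the mouse brain were taken as the genes whose annotated symbol begins with Hspa, Hspb, Hspd1, Hspe1, Hsph1, Hsp90 or Dnaj, or with Cct and a digit. This rule found 62 genes of the 11640 that could be named on the array. They were carried by 100 probes. Where a gene had several probes, as 12 of them did, it was represented by the most variable one, and all other named genes were treated alike.

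Brain RNA of 292 F2 mice was measured, each animal once, on a two-colour array against a pool of RNA from all of them. The mice, females and males, came from a cross of C57BL/6J with C3H/HeJ, both inbred strains, through F1 parents bred in both directions. All ate chow with 4% fat to week 8, followed by 12 weeks of Western diet (42% fat, 0.15% cholesterol), and all were killed at 20 weeks after 12 h without food. There was no other diet and no untreated group, the labels give no sex or cross direction for a single animal, and all 292 mice formed 1 group. Each value is a log ratio of a mouse to the pool, with base 10 and this direction both likely rather than stated. A value of 0 is therefore equality with the pool, which need not be the mean of the 292 mice. The data hold no absolute level of any gene, so whether brain markers are present could not be checked as levels. In whole brain, fewer cells of a type and less RNA per cell cannot be told apart.

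Heat shock proteins are chaperones that hold, fold or disassemble other proteins. Hsp70 proteins work in cycles of binding and release, in which J proteins of the Dnaj family deliver clients and start the cycle, and Hsp110 proteins and Hspbp1 reset it. The cytosol, the endoplasmic reticulum and the mitochondria each have their own set. Heat and other stresses that unfold proteins activate the factor HSF1, which binds repeated units in the promoters of Hspa1a, Hspb1, Dnajb1, Hsph1 and others, whereas unfolded protein in the endoplasmic reticulum raises Hspa5 and Hsp90b1 through a separate element. The chaperonin CCT is a ring of different subunits that folds actin and tubulin, the main cytoskeletal proteins of neurons.

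Of the 62 genes, 19 were J proteins of the cytosol, nucleus or vesicles, 11 belonged to the cytosolic Hsp70, Hsp110 and Hsp90 families, 9 each were chaperones of the endoplasmic reticulum and CCT genes, 8 were mitochondrial, 5 were small heat shock proteins and 1 was Hspbp1. A list of 13 heat-inducible genes was held beside these classes, and 10 of them were measured. These were Hspa1a, Hspb1, Dnajb1, Dnaja1, Hsph1, Hspa4l, Hsp90aa1, Hspd1, Hspe1 and Hspa8, the last of which is the constitutive Hsp70. The α subunit gene of CCT, Tcp1, has a symbol outside the rule and was treated as a neighbour. Hspa1a has a near-identical copy, Hspa1b, and Hspa8 has many processed copies, so both values are uncertain as values of a single gene.

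The promoters of the genes are shown first, because the comparisons below ask which of them moved together. The windows ran from 250 bases before to 50 bases after an annotated start in RefSeq, assembly GRCm38.p6, and 50 of the 62 genes matched one. Capitals mark matches on either strand to the heat shock element, read as 2 facing units, GAANNTTC or TTCNNGAA, or to the endoplasmic reticulum stress element, read as CCAAT, 9 bases of any kind and CCACG. Hspe1 and Hspd1, which encode the mitochondrial chaperonin pair Hsp10 and Hsp60, share one stretch between their starts on chromosome 1. It carries 4 alternating units in a row:
Hspe1 and Hspd1, chr1:55088049-55088086, + strand: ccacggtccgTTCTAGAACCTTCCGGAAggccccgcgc
The promoters of Hsph1 (Hsp110), Hspa1a (inducible Hsp70) and Dnajb6 (a J protein that keeps polyglutamine proteins from aggregating) held these matches:
Hsph1, chr5:149636352-149636379, - strand: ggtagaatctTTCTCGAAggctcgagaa
Hspa1a, chr17:34972243-34972270, - strand: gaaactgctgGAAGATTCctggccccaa
Dnajb6, chr5:29735842-29735874, + strand: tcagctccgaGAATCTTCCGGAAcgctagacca
In a pair of CCT promoters the match lay close to the start:
Cct2, chr10:117063400-117063427, - strand: cccaagtgaaGAAGTTTCtagcaggacc
Cct5, chr15:31601863-31601890, - strand: cagcggccgaTTCCAGAAgctactctgc
The stress element of the endoplasmic reticulum stood in the promoters of Hspa5 (BiP, its main Hsp70), Dnajc3 (a J protein that serves BiP) and, at both ends of the stretch shown, Hsp90b1 (Grp94, its Hsp90):
Hspa5, chr2:34772015-34772053, + strand: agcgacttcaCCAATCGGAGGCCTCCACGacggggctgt
Dnajc3, chr14:118937817-118937855, + strand: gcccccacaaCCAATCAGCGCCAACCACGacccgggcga
Hsp90b1, chr10:86705523-86705666, - strand: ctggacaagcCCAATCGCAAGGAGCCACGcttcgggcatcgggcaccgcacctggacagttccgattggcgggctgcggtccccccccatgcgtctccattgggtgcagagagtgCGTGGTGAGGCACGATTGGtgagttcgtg

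The 2-unit element was present in 16 of the 50 genes, or 32.0%, against 17.0% of the 27025 genes with such windows. It was present in 6 of 8 heat-inducible genes, in 4 of 8 CCT genes and in 1 of 8 genes of the endoplasmic reticulum. A run of 3 alternating units was present in 4 genes, Hspd1, Hspe1, Dnajb6 and Hsph1, against 0.662% of all genes, and each run contains 2-unit matches. In Hsph1 the run lies after the start, outside the stretch shown. The stress element of the endoplasmic reticulum was present in 3 of the 8 genes of that compartment and in 0.137% of all genes. These are matches of letters in a window, and no binding was measured.

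On the most variable probe of each gene, the median SD of the chaperone genes was 0.0581 on the log scale, or 1.14-fold. It was 0.0512 for all named genes, and 43 of the 62 lay above that value. Choosing probes by SD raises the SD most for genes with many probes, such as Hspa8 and Hspd1 with 11 each. Whether chaperone genes vary more than others therefore cannot be told from these values. The widest, also among the J proteins of the cytosol, nucleus and vesicles, was Dnajc7, a J protein with repeats that bind both Hsp70 and Hsp90. Its log ratio ran from -0.493 through a median of 0.0541 to 0.557, its SD was 0.229 (n = 292), and its 5th and 95th percentiles lay 5.74-fold apart. Next in that class was Dnajc5, the cysteine string protein of synaptic vesicles, with an SD of 0.107 and values from -0.272 to 0.283, followed by Dnajc22 with an SD of 0.0969. Dnajc7 is not on the heat-inducible list.

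Among the cytosolic Hsp70 and Hsp90 genes, Hspa1a had the largest SD, 0.118. It ran from -0.315 through a median of -0.0930 to 0.582. Hspa8, the constitutive Hsp70 (Hsc70), had an SD of 0.112 and ran from -0.440 through 0.0309 to 0.258, and Hsp90aa1, the inducible cytosolic Hsp90, had an SD of 0.0862. Hsph1 was narrower, with an SD of 0.0638 and values from -0.179 through 0.0177 to 0.202. In contrast Hspa1l, a germ cell Hsp70, Hspa12a and Hspa12b were nearly flat, with SDs of 0.0259 to 0.0325.

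In the endoplasmic reticulum, Dnajb11, a J protein of BiP, had the largest SD, 0.105, which owed much to single mice. Its lowest value was -0.578 in mouse 184 and its highest 0.887 in mouse 229, while its 5th and 95th percentiles were -0.132 and 0.127. Its only probe was named by the platform annotation alone. Hspa5 had an SD of 0.10 without such extremes and ran from -0.261 through 0.0321 to 0.328. Hspa13, an Hsp70-like protein of microsomes, had an SD of 0.0788. The widest CCT genes were Cct2, Cct8 and Cct3, with SDs of 0.0671, 0.0646 and 0.0633. Cct6b, a testis form of a CCT subunit, was among the narrowest at 0.0325.

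Among the mitochondrial genes, the spread of Hspd1 and Dnajc11 was shaped by 2 mice. Hspd1 stood at the limits of the scale, -2 in mouse 216 and 2 in mouse 313, which correspond to 100-fold, and every other mouse lay between -0.131 and 0.228. Its SD was 0.173 with these mice and 0.0510 without them. Dnajc11, a J protein of the mitochondrial membrane, also stood at -2 in mouse 216, and its SD fell from 0.132 to 0.0621 without that mouse. Hspa9, the mitochondrial Hsp70, had an SD of 0.0879 and no value at a limit. Of the small heat shock proteins, Hspb1 (Hsp27) had the largest SD, 0.0920, with values from -0.259 through -0.0647 to 0.458, followed by Hspb2 at 0.0575 and Hspb6 at 0.0529. Hspb7, known from heart muscle, was nearly flat at 0.0265.

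**Figure D1:**
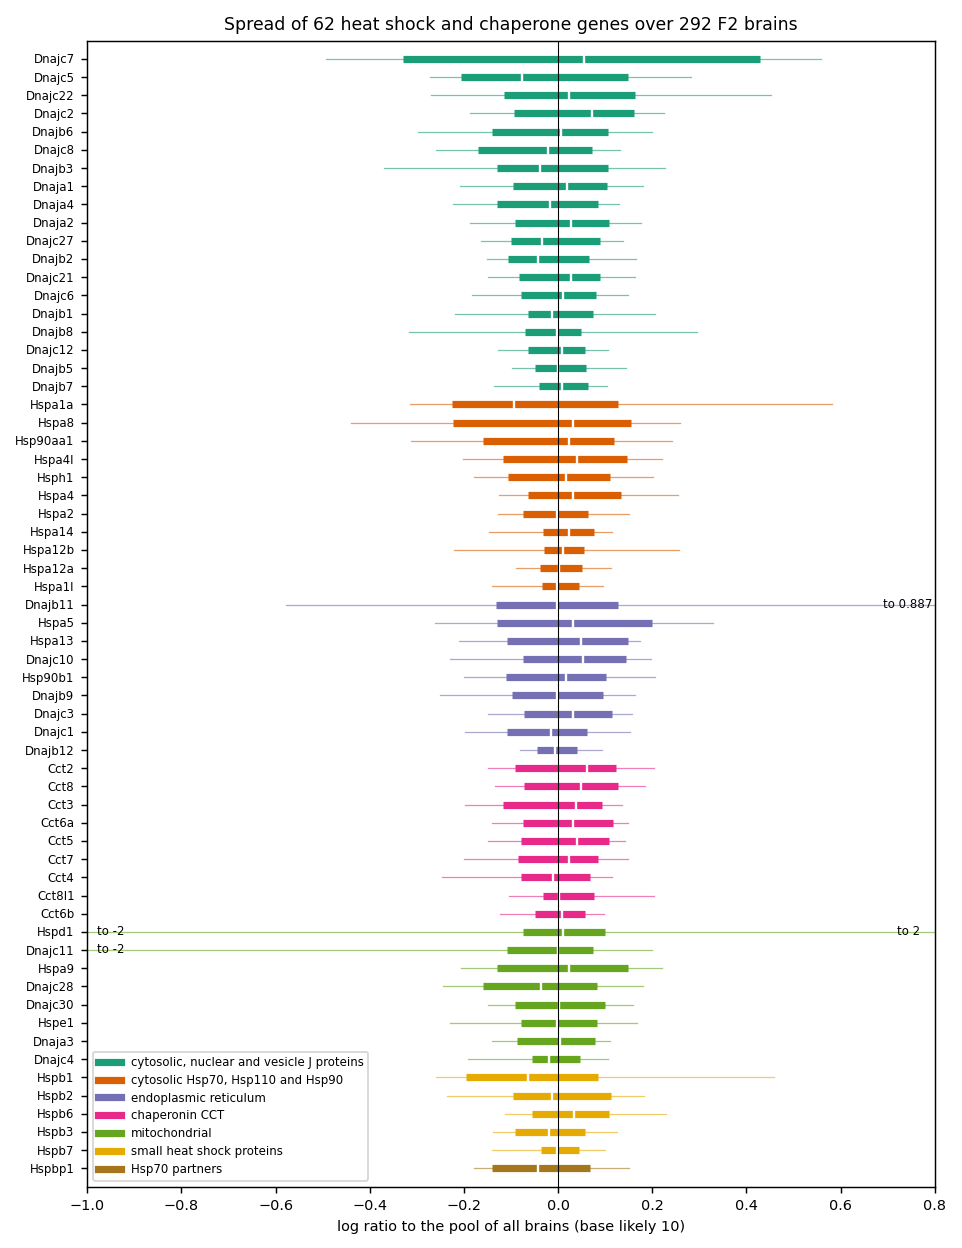
Log ratio to the pool (x axis, base likely 10) of each of the 62 genes (y axis, grouped by class), over 292 mice. Thick bars run from the 5th to the 95th percentile, thin lines from the lowest to the highest mouse, and the white tick is the median. The axis ends at -1 and 0.8, and values beyond it are written beside the line; Dnajc7 has the longest thick bar, with percentiles 5.74-fold apart.

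Several genes were read by more than one probe, and the probes did not always move together. The other probe of Hspe1 followed the one used at r = 0.980, that of Dnajc2 at 0.961, and 1 of 2 for Cct3 at 0.964. For Hspa8, 3 of 10 other probes followed at r of 0.5 or more. For Hspd1 none of 10 did (r from -0.118 to 0.177), and the same was true of the single other probe of Hspa1a (r = -0.0992), the pair for Dnajc5 (highest r = 0.0716), the 4 for Cct7 (highest r = 0.0163) and the single other probes of Dnajc30 (r = 0.0468) and Dnajc8 (r = 0.222). Values of these 6 genes therefore rest on a single probe.

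The mean of each gene was first compared with the pool. None of the 62 genes lay 1.2-fold or more from it at an adjusted p under 0.05 in limma (Benjamini-Hochberg over 23549 probes), against 0.586% of all probes (0.106% higher, 0.48% lower). The count was also 0 at an unadjusted p under 0.05 with that fold. Without the fold, 48 of the 62 were called, 30 above and 18 below the pool, against 68.4% of all probes. In batches A and B alone it was 0 (0.14% of probes in each), and in batch C alone, described next, 12, 8 above and 4 below (6.96%).

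The arrays fell into 3 batches, defined only by which probes have no value. Batch A held 74 arrays (mouse numbers 51 to 196), batch B 77 arrays (54 to 212) and batch C 141 arrays (213 to 362). The labels name no hybridisation or extraction date and do not say what the batches are. The median of the Y-linked gene Eif2s3y, absent from females, was -1.65 in A, 0.281 in B and -0.0631 in C. The share of arrays in which it did not lie far below the pool was 1.35%, 98.7% and 53.9%. By this gene A was almost all female, B almost all male and C mixed, so A against B cannot be told apart from sex. Sex was not a term in any fit, and its part in the comparisons below was not tested. The highest Eif2s3y was 0.385 in B but 0.123 in C, below the median of B. Whether a ratio to the pool means the same in C as in A and B was not tested. The median SD of an array was 0.0623, 0.0628 and 0.0710. Across all probes, the r between 2 arrays ran from -0.638 to 0.795 (median 0.109), and it was under -0.3 for 3.39% of array pairs. The dyes are stated in the labels, and the direction was kept.

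Chaperone genes differed between these batches, and always with batch C on one side. In limma's F test, 12 of the 62 were called (adjusted p under 0.05 and batch means at least 1.2-fold apart), 9 higher and 3 lower in batch C. The background was 8.17% of all probes, 4.61% higher and 3.57% lower in C. For genes with several probes, the one used was picked by its SD, which includes batch differences, whereas the background holds all probes. Of the called genes, Hspa1a, Dnajc2 and Dnajc5 have several. The same limit holds for the slopes and discrete levels below. Between A and B, none of the 62 was called by limma, with or without the fold, against 0.161% and 1.07% of probes. Without the fold threshold, 48 differed over the 3 batches, against 64.0% of probes, so the number called depends strongly on that threshold.

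Dnajc7 differed most. Its values ran from -0.493 through -0.0248 to 0.439 in A, from -0.435 through -0.0340 to 0.442 in B and from -0.119 through 0.187 to 0.557 in C, a 1.68-fold difference of means (adjusted p = 3.75e-17). The groups overlapped, with the lowest mouse of C well above the lowest of A and B. Hspa1a lay the other way, with medians of -0.0336, -0.0189 and -0.138, 1.35-fold lower in C (adjusted p = 5.56e-20). Dnajc2, a J protein that sits on the ribosome, had medians of 0.000891, 0.0183 and 0.122, a 1.33-fold difference (adjusted p = 9.97e-47). Hspa5 had medians of -0.0204, -0.0351 and 0.0874, a 1.32-fold difference (adjusted p = 7.08e-26).

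Thus the chief Hsp70 of the endoplasmic reticulum was higher in batch C, while the inducible cytosolic Hsp70 was lower. Hspb1 (1.31-fold) and Dnajc5 (1.27-fold) were the other 2 genes lower in C. Dnajc10, a disulphide reductase of the endoplasmic reticulum (1.28-fold), Cct2 (1.25-fold), Cct8, Hspa13, Hspa4l and Hspa4 were higher. Where a gene's value was the mean of its probes, 10 were called, with no share over all genes computed. Hspa1a and Dnajc5 were the 2 lost. All relations between genes below therefore have batch as a term, and values within each batch are given for the closest ones.

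**Figure D2:**
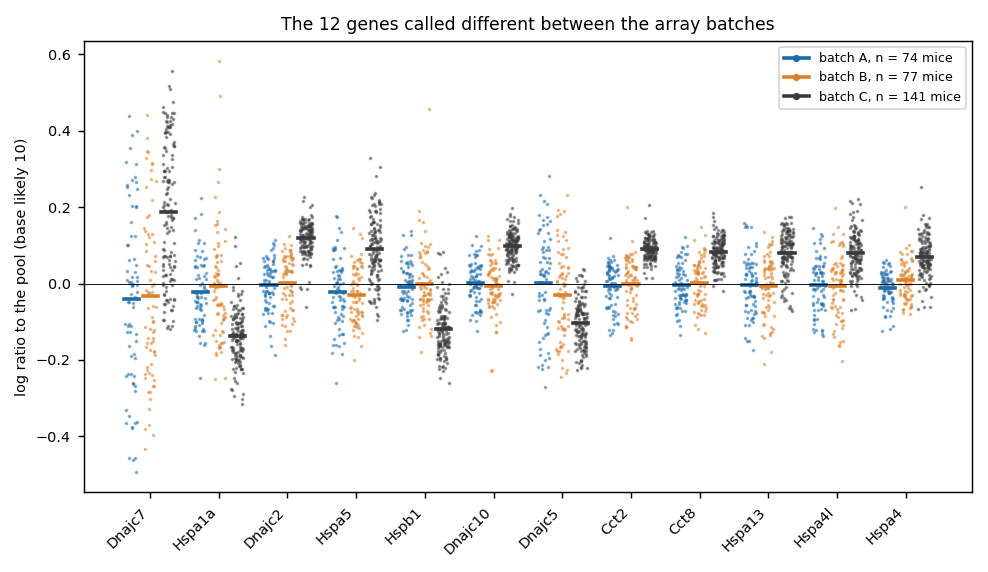
Log ratio to the pool (y axis, base likely 10) of the 12 chaperone genes called different between array batches (x axis), 1 point per mouse and a bar at each batch mean (A, n = 74; B, n = 77; C, n = 141). Batches A and B overlie each other, and batch C lies higher for 9 genes and lower for Hspa1a, Hspb1 and Dnajc5.

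Genes that rose and fell with Hsph1 across mice were sought next. Hsph1 stood for the cytosolic heat shock genes, and a gene was called at a limma adjusted p under 0.05 over 23548 probes and a partial r of at least 0.3 in size, with batch as a factor. Of the other 61 genes, 19 rose with Hsph1 and 2 fell, against 10.5% and 8.42% of all probes. The set that rose included Hsp70, Hsp110 and Hsp90 genes of the cytosol, J proteins, chaperones of the endoplasmic reticulum and CCT subunits, while no mitochondrial gene and no small heat shock protein was called on the probes used. For all 21 called genes the permutation p of Pearson's r and of Spearman's rho was 1e-05, the smallest that 100000 permutations within batches can give. The members were correlated with 4 reference genes in all, which makes 244 relations.

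The closest gene was not a cytosolic one. Hsp90b1, the Hsp90 of the endoplasmic reticulum, followed Hsph1 at r = 0.786 (rho = 0.752, adjusted p = 1.51e-58), and at 0.810, 0.816 and 0.697 in batches A, B and C. It changed by 0.0513 log units (SE 0.00238) per SD of Hsph1. Hspa4l, a second Hsp110, followed at r = 0.727 (rho = 0.675, adjusted p = 7.25e-46), with 0.838, 0.839 and 0.456 by batch. Hspa8 followed at r = 0.585 (rho = 0.605, adjusted p = 5.79e-26), with 0.656, 0.615 and 0.448, and 4 of its 10 other probes followed Hsph1 at 0.5 or more in size. All 3 relations kept their sign in each batch. Leaving out the 2 mice most distant from the Hsph1 median gave r = 0.770, 0.711 and 0.611.

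The CCT subunits formed the next group, with 5 of 9 CCT genes called. Cct7 was not (r = 0.273), but 3 of its 4 other probes had an r of 0.302 to 0.525 and the mean of its probes 0.553. Cct6a (r = 0.563, rho = 0.553, adjusted p = 1.41e-23) and Cct5 (r = 0.562, rho = 0.505, adjusted p = 1.89e-23) were closest. Without the 2 mice their r was 0.568 and 0.544. By batch they stood at 0.745, 0.630 and 0.344 for Cct6a and at 0.707, 0.568 and 0.376 for Cct5. Cct3, Cct8 and Cct2 were weaker (r = 0.514, 0.473 and 0.448), and in batch C alone they reached only 0.225, 0.107 and 0.104.

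Of the 19 J proteins of the cytosol, nucleus and vesicles, 7 rose with Hsph1 and 2 fell. Dnajc21, which takes part in making the large ribosomal subunit, had an r of 0.526 (rho = 0.455, adjusted p = 2.72e-20), at 0.701 and 0.683 in A and B but 0.0331 in C. Dnaja1, the heat-inducible type A partner of Hsp70, had 0.522, and 0.345 in C. Dnajc7 had 0.50 and Dnajb1, the main heat-inducible J protein, 0.330. Falling as Hsph1 rose were Dnajc27, a J protein with a small GTPase domain (r = -0.422, rho = -0.415, adjusted p = 7.99e-13), and Dnajc5 (r = -0.440, rho = -0.443, adjusted p = 5.09e-14). Their r without the 2 mice was -0.421 and -0.470, and in batch C alone -0.315 and -0.232. The other probes of Dnajc5 had an r with Hsph1 of 0.00306 and -0.190, and the mean of its probes -0.382.

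Besides Hsp90b1, 3 other genes of the endoplasmic reticulum rose, Dnajc3 (r = 0.498), Hspa5 (r = 0.488) and Hspa13 (r = 0.391). The r of Hspa13 was -0.0879 in batch C, and so this relation did not hold there. The 8 mitochondrial genes had r between -0.275 and 0.153. The highest was Dnajc11, whose rho was 0.421 and whose r was 0.483, 0.510 and 0.0675 by batch, with mouse 216 at -2 in C. The r of the 5 small heat shock proteins lay between -0.280 and 0.271. Of the 9 other heat-inducible genes, 5 rose. Hspa1a (r = 0.287, adjusted p = 2.92e-06) and Hspb1 (r = 0.271, adjusted p = 1.15e-05) fell short of the minimum r, and Hspd1 (r = 0.0228) and Hspe1 (r = 0.0710) lay near 0. The 10 other probes of Hspd1 had an r with Hsph1 from -0.365 to 0.552, with the next highest at 0.468 and 0.457, so its value depends on the probe.

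**Figure D3:**
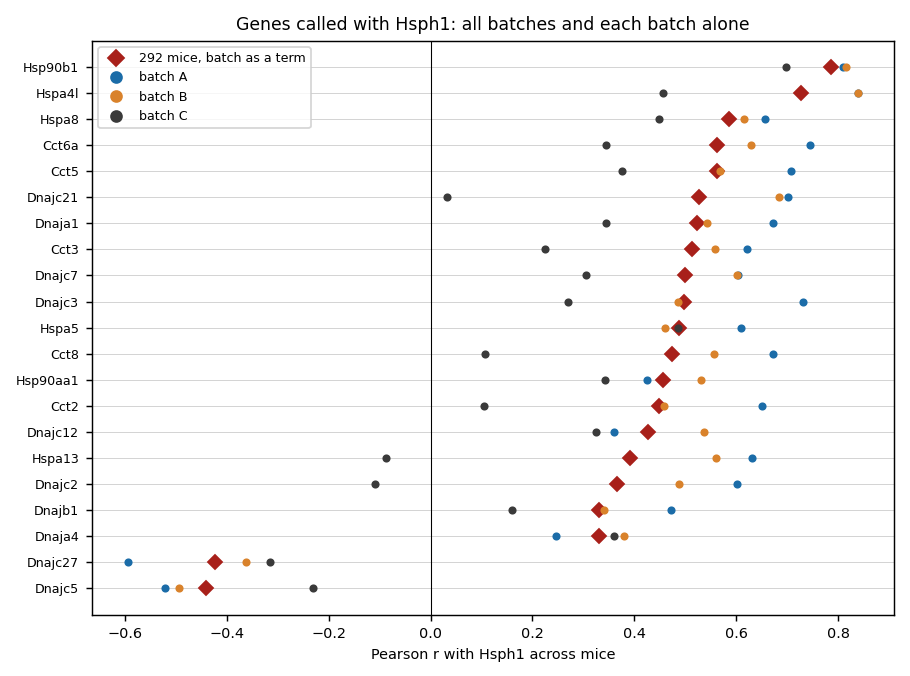
Pearson r with Hsph1 (x axis) of the 21 called genes (y axis), over all 292 mice with batch as a term (diamonds) and in batches A, B and C alone (circles). Hsp90b1 holds in all 3 batches, whereas Dnajc2 and Hspa13 cross 0 in batch C, at -0.109 and -0.0879.

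The strength of the relation to Hsph1 differed between batches. For 17 of the 19 genes that rose, r was lower in batch C than in both A and B, and the median r was 0.651 in A, 0.557 in B and 0.326 in C. In batch C alone 14 of the 61 genes rose, against 3.41% of probes, while in A and in B 22 did, against 17.0% and 16.7%. Hsph1 itself was narrower in C, where it ran from -0.0597 to 0.156, than in A (-0.150 to 0.135) and B (-0.179 to 0.202). The test of the difference itself, limma's interaction of Hsph1 with batch, called 17 genes at an adjusted p under 0.05, against 18.0% of probes. Of them, 10 were also called with Hsph1, and for 9 of the 10 the slope was smallest in batch C. Dnajc21 fell from slopes of 0.0347 and 0.0333 log units per SD of Hsph1 in A and B to 0.00172 in C (adjusted p = 1.11e-05), whereas Hspa5 kept 0.0573 in C against 0.0512 and 0.0246 (adjusted p = 0.0144).

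Among the heat-inducible genes, Hspa1a was closest to 2 others. It followed Hspb1 at r = 0.603 (rho = 0.509) and Dnajb1 at r = 0.513 (rho = 0.392), while Dnajb1 with Hspb1 had 0.271, Hspa1a with Dnaja1 0.326 and Dnajb1 with Hsph1 0.330. In batches A, B and C the r with Hspb1 was 0.428, 0.760 and 0.492, and that with Dnajb1 was 0.407, 0.693 and 0.333. Hsph1, Hspa4l, Hspa8, Dnaja1 and Hsp90aa1 formed most of the other close pairs, such as Dnaja1 with Hspa4l (r = 0.671) and Hsp90aa1 with Hspa4l (r = 0.619). Of the 45 pairs of heat-inducible genes, 12 had an r of at least 0.3 and 1 an r of -0.3 or less, Hspa8 with Hspe1 (r = -0.493). These pairs are given as descriptions.

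A single animal stood out in these genes. Mouse 67, of batch B, had the highest Hspa1a of all 292 mice (0.582, or 3.82-fold over the pool), the highest Hspb1 (0.458) and the highest Hsph1 (0.202). It was also second for Dnajb1 (0.154) and for Hspe1 (0.166) and ranked 3 for Hsp90aa1 (0.207). Its Hspa8 was -0.0724, below the pool. Mouse 95, second for Hspa1a at 0.491 and first for Dnajb1 at 0.205, had an Hsph1 of 0.0180 and an Hsp90aa1 of -0.123, so high Hspa1a did not always come with high Hsph1. The 5 mice highest in Hspa1a all belonged to batch B. All these ranks are of values with batch means kept, and Hspa1a was lower in batch C as a whole. With the 2 mice most distant from the Hspa1a median left out, its r with Hspb1 was 0.532.

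Hspa5, the main Hsp70 of the endoplasmic reticulum, moved with fewer members. Of the other 61 genes, 10 rose with it and none fell by limma, against 3.63% and 3.43% of probes (7.06% either way), and for all 10 the permutation p of r and rho was 1e-05. Only 2 of the 8 other genes of its own compartment were among them, Hsp90b1 (r = 0.471, rho = 0.413, adjusted p = 5.91e-15) and Dnajc3 (r = 0.409, rho = 0.395, adjusted p = 3.93e-11). The promoters of both, like that of Hspa5, hold the stress element shown above, and its part in the relation was not tested. Both had a higher r with Hsph1 (0.786 and 0.498), whose windows hold no such element. With Hspa5 they stood at 0.670, 0.503 and 0.331, and at 0.467, 0.402 and 0.382, in batches A, B and C.

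The J proteins of BiP were not all alike. Dnajb9, an early gene of the unfolded protein response, had an r of 0.211 with Hspa5, from -0.0960 in A to 0.456 in C. Dnajc10 had 0.196 and Dnajb11 0.0270, the latter on a probe whose gene identifier was not in the mouse gene table. Outside the compartment the closest were Hsph1 (r = 0.488, rho = 0.478), Cct7 (r = 0.477, rho = 0.494), Dnajb1 (r = 0.450, rho = 0.444) and Cct5 (r = 0.412, rho = 0.371). By batch Dnajb1 had 0.522, 0.596 and 0.316 and Cct5 0.606, 0.304 and 0.358. The value of Cct7 belongs to 1 probe: its 4 others had an r of -0.0303 to 0.0277 with Hspa5, and the mean of its probes 0.151. With the 2 mice most distant from the Hspa5 median left out, the 10 values of r lay between 0.297 and 0.467. Hspa1a rose with Hspa5 within batches (r = 0.324, with 0.173, 0.561 and 0.264 by batch), but its r was -0.0795 with no batch term, and batch C was higher for one gene and lower for the other. Cct8l1 had 0.201, 0.141 and 0.513 by batch. In batch B alone 8 genes rose with Hspa5, against 0.599% of probes, in A 18 (10.5%) and in C 14 (14.6%).

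The CCT subunits were then set against Cct2. Of the other 61 genes, 20 rose with Cct2 and 8 fell, against 12.9% and 13.6% of probes. For 27 of these 28 the permutation p of r and rho was 1e-05, and for Hspe1 that of rho was 0.00025. Within the complex, Cct3 (r = 0.771, rho = 0.733, adjusted p = 1.82e-55), Cct5 (r = 0.673), Cct8 (r = 0.633) and Cct6a (r = 0.553) rose with it. In batch C they had 0.347, 0.472, 0.489 and 0.156. Among Cct2, Cct3, Cct5, Cct6a and Cct8 the 10 pairs had a median r of 0.653, from 0.454 to 0.796. These 5 were picked after their values were seen, and the pairs are a description.

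The other CCT genes were not called as rising. Cct7, a subunit of the same ring, had an r of 0.179 with Cct2 on the probe used but 0.613 as the mean of its probes. Cct4, another subunit, had -0.160. Cct8l1, a copy of Cct8, fell (r = -0.313), and Cct6b lay near 0 (r = -0.0430). With Cct2, the ribosome-bound Dnajc2 was closer than most subunits (r = 0.696, rho = 0.70, adjusted p = 2.43e-41). Hspa8 followed at 0.548 (rho = 0.434) and Hspa4, an Hsp110, at 0.546 (rho = 0.581). In batch C, Hspa4 had an r of 0.563, whereas Dnajc2 had 0.314 and Hspa8 -0.0140.

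Genes that fell as Cct2 rose were led by Dnajc27 (r = -0.615, rho = -0.574, adjusted p = 4.29e-30), with -0.769, -0.599 and -0.391 by batch. Dnajb2, a neuronal J protein that passes clients to the proteasome (r = -0.421), Dnajb9 (r = -0.414), Hspbp1 (r = -0.389), Hspb7 (r = -0.341) and Dnajc5 (r = -0.339) came next. Cct8l1 and Hspe1 (r = -0.305) completed the 8. In batch C the r of Dnajb2, Dnajb9, Hspbp1, Hspb7 and Dnajc5 was -0.0658, -0.117, -0.241, -0.0163 and -0.0887. In all 20 genes that rose, r was lower in batch C than in A and in B. In C alone 7 genes rose and 1 fell, against 3.32% of probes that rose. Over all probes more rose with Cct2 in A (19.0%) and B (18.6%), so the drop in C was not particular to these genes. The share of probes that fell was not computed by batch. Cct2 itself was narrower in C, where it ran from 0.0141 to 0.205, than in A (-0.135 to 0.120) and B (-0.149 to 0.202).

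Hspd1 gave a relation to 1 gene, Dnajc11 (r = 0.637, rho = 0.216, adjusted p = 1.09e-31), against 0.157% of probes. Its permutation p was 0.00044 for r and 0.00024 for rho. It rested on the 2 mice at the limits of Hspd1, in one of which both genes stand at -2: without them r was 0.158, and 4 other genes were called instead, Dnajc30 (r = 0.458), Dnajc22 (0.384), Hspb6 (0.352) and Hsp90aa1 (0.303). In batches A and B it was 0.136 and 0.0910, and in C, which holds both mice, 0.669. In batch C alone 2 genes rose with Hspd1, against 0.365% of probes, and in A and B 11 (12.4%) and 9 (10.8%). Hspe1, which shares the promoter shown above, had an r of -0.0336 with Hspd1 (rho = -0.0157), and the 10 other probes of Hspd1 had an r with Hspe1 of -0.144 to 0.255. No probe of Hspd1 reached an r of 0.3 with Hspe1.

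Over all 1891 pairs of the 62 genes the median r was 0.0112, against -0.00273 for all pairs of named genes. The pairs were spread more widely: 16.2% had an r of at least 0.3 and 10.7% of -0.3 or less, against 9.33% and 8.01%. The closest pair was Cct3 with Cct5 (r = 0.796, rho = 0.770; 0.870, 0.875 and 0.519 by batch). A second group held J proteins of different compartments. Dnaja3, a mitochondrial J protein (Tid1), followed Dnaja4 at r = 0.774 (rho = 0.746), with 0.858, 0.711 and 0.771 by batch.

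Dnajb6 belonged to that group. Because its values fell into 2 levels, r is given within them. In the upper level of 276 mice it followed Dnaja3 at r = 0.666 and Dnajc6 (auxilin, which strips clathrin from vesicles) at r = 0.666, and in the lower level of 16 mice at 0.753 and 0.324. Hspa13 with Hspa4l (r = 0.742, rho = 0.739) and Dnajc2 with Hspa4l (r = 0.734, rho = 0.749) had 0.625 and 0.642 in batch C. Dnajc8, a spliceosome protein whose probes disagree, followed Dnajc28 (r = 0.699, rho = 0.616) and opposed Dnajb9 (r = -0.658, rho = -0.648; -0.613, -0.563 and -0.795 by batch).

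Hspbp1, which opens Hsp70 to release nucleotide, took part in several of the most negative pairs. It had an r of -0.660 with Dnajc2 (rho = -0.664; -0.749, -0.624 and -0.648 by batch) and of -0.654 with Hspa13 (rho = -0.631). With Cct8 and Hspa4l it had -0.619 and -0.617. The mitochondrial Dnajc4 opposed Dnajc21 (r = -0.642, rho = -0.615). Leaving out the 2 mice most distant from the Dnajc2 median gave an r of -0.651 with Hspbp1.

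**Figure D4:**
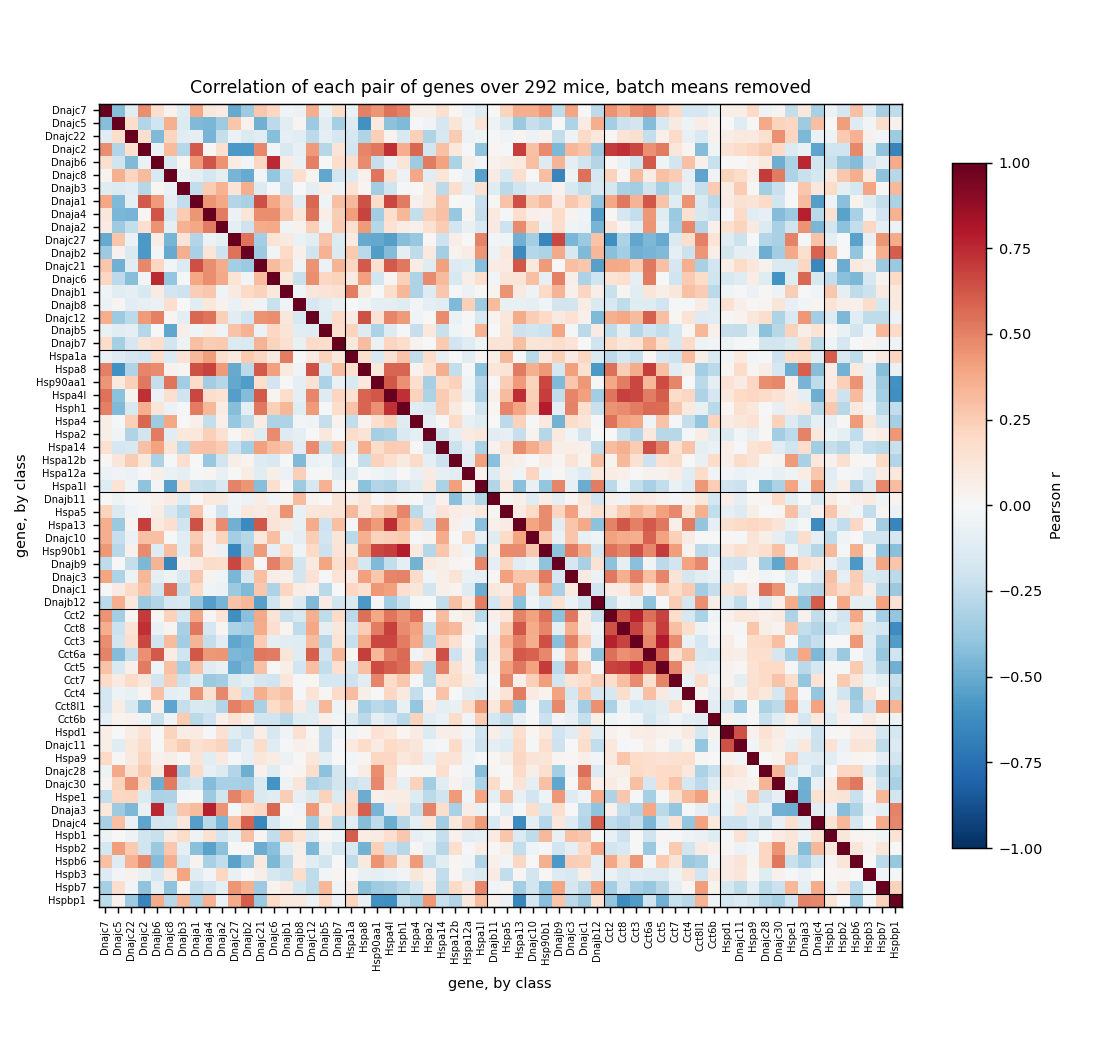
Pearson r (colour scale, -1 to 1) of every pair of the 62 genes over 292 mice after batch means were removed, with genes in the same order on both axes and black lines between classes. A block of CCT subunits with Hsp90b1, Hspa4l, Hspa13, Dnajc2 and Hsph1 is positive, the rows of Dnajc27, Dnajb2 and Hspbp1 are negative against it, and the closest pair, Cct3 with Cct5, has an r of 0.796.

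In an intercross a locus of large effect can give a gene discrete levels, so mixtures of 1 to 3 normal distributions were fitted to each probe. Discrete levels (neighbouring means over 3 SDs apart, each level with 5% of mice or more) were called for 6 of the 62 genes, against 6.57% of all probes. Cct3 had means of -0.0986 and 0.0455, 4.11 SDs apart, with 15.8% of mice in the lower level. Cct2 had means of -0.0662 and 0.0678 with 18.2% in the lower level, and Cct7 of -0.10 and 0.0240 with 7.53%.

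These 3 CCT genes shared a pattern by batch. Of the mice assigned to the lower level, for Cct3 21 were in A and 25 in B, for Cct2 27 and 26, and for Cct7 10 and 12, and in each gene 0 of the 141 mice of batch C. None of the 3 was called once batch means were removed, so levels and batches cannot be told apart here. Within levels, Cct3 still followed Cct2 (r = 0.665 in the lower, 0.569 in the upper level), and Hsph1 at 0.361 and 0.309. Cct2 followed Hsph1 at 0.316 and 0.231.

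Dnajb6 and Hspb2 kept their call with batch means removed, and Dnajc8 was called then as well. With arrays scaled to equal spread, Dnajb6 lost its call, and Dnajc12 lost it both then and with batch means removed. Dnajb6 had a lower level at -0.174, with 5.48% of mice, and an upper one at 0.0147, and the lower level held 5.41%, 5.19% and 5.67% of batches A, B and C. Hspb2, a small heat shock protein of muscle, had 3 levels at -0.130, -0.0135 and 0.108, with 5.14%, 85.3% and 9.59% of mice, and the outer levels were rare in C (0 and 2 mice). Within the middle level of 249 mice its r with Hsph1 was -0.414. Dnajc12, a partner of the aromatic amino acid hydroxylases, had 5.14% of mice in a level at -0.0817. Its r with Hsph1 was 0.320 within the upper level and -0.0766 within the lower level of 15 mice. At a separation of 4 SDs, Cct3 alone was called.

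The mouse number was the only number in the labels, which do not say what it follows. With batch as a factor, 10 of the 62 genes had a slope on it (adjusted p under 0.05 and at least 1.2-fold over the span of 311 numbers), 9 downward and 1 upward, against 7.98% of probes (4.28% downward, 3.71% upward). The slopes are those within batches, and no batch covers the whole span, so the folds over it are extrapolated. Those that fell were Dnajc7 (2.56-fold), Hspa8 (1.52), Hspa5 (1.45), Hspb1 (1.41), Hsph1 (1.39), Hspa4l (1.37), Hspa1a (1.3), Hsp90b1 (1.29) and Hsp90aa1 (1.29). Of these 9, 6 are on the heat-inducible list, among them the constitutive Hspa8. Dnajc5 rose (1.45-fold).

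Batches A and B cover the same mouse numbers, and several slopes seen in both were absent in C. The median of Hsph1 was 0.0278 in the lower-numbered and -0.0313 in the higher-numbered mice of A (37 each). In B it was 0.0214 and -0.0570 (39 and 38 mice), and in C 0.0323 and 0.0284 (71 and 70 mice). Hspa8 fell from 0.0663 to -0.0790 in A and from 0.0427 to -0.0650 in B, and was level in C (0.0544 and 0.0549). Hspa5 was lower in the higher-numbered mice of every batch, from 0.117 to 0.0638 in C. Dnajc5 rose in A and B (from -0.0700 to 0.0889 and from -0.111 to 0.0422) and had a slope of the other sign in C (-0.0368 per 100 numbers). In batch A alone 4 genes were called, in B alone 10 and in C alone 3, with the fold taken over that batch's own numbers. No share over all probes was computed for these counts.

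**Figure D5:**
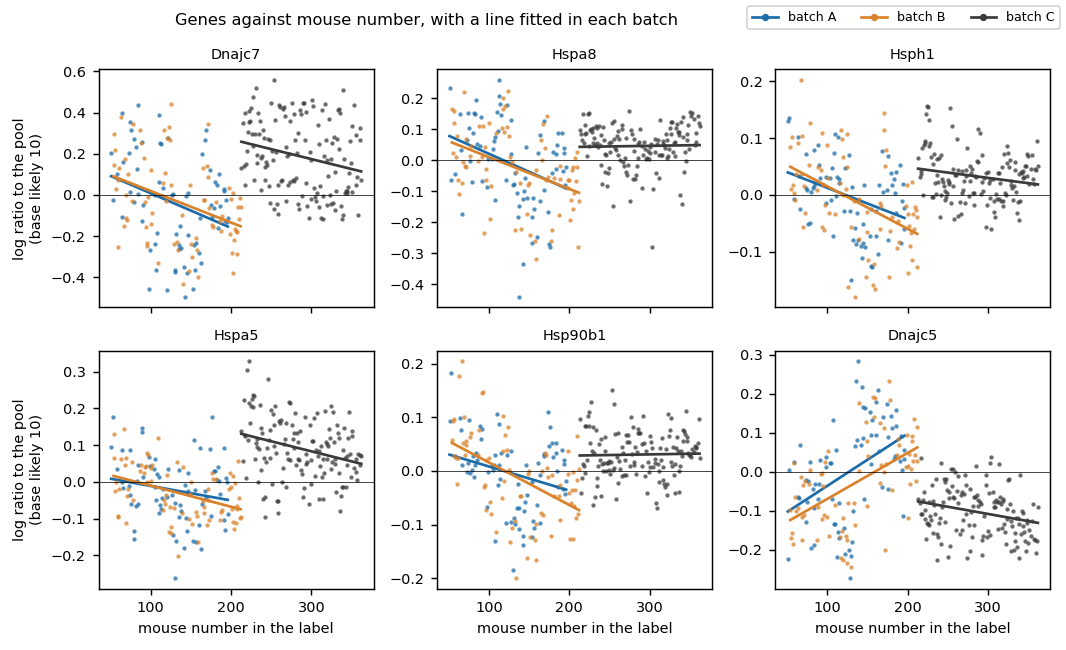
Log ratio to the pool (y axis, base likely 10) of 6 chaperone genes against mouse number (x axis), 1 point per mouse, with a straight line fitted in each batch. In batches A and B the lines of Dnajc7, Hspa8, Hsph1, Hspa5 and Hsp90b1 fall and that of Dnajc5 rises, whereas in batch C Hspa8 and Hsp90b1 are level.

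The relation to Hsph1 was also fitted beside the mouse number. Shares over all probes were not computed with a covariate, so the counts that follow have no background. With the number as a further covariate, an alternative added after the data were seen, 17 genes rose with Hsph1 and 2 fell, and the 19 values of r lay between 0.288 and 0.769. With the first principal component of the arrays as a covariate instead, 18 rose and 2 fell, but of the 21 genes called without it only 15 kept their call. Dnajc12, Dnajc2, Hspa13, Dnajc27 and Dnajc5 lost it, Dnaja4 turned to -0.0404 from 0.330, and the 2 that fell were Dnaja2 (r = -0.312) and Dnaja3 (r = -0.316). Newly called as rising were Cct7 (r = 0.489), Hspe1 (r = 0.414) and Hspb1 (r = 0.330). Hspe1 is mitochondrial and Hspb1 a small heat shock protein, and without this covariate no gene of either class was called.

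The wider machinery around these genes moved partly with Hsph1. Of 19 measured genes on a list of HSF1 and cochaperones, 6 rose and 1 fell, with a median r of 0.101 against -0.0342 over all named genes. Stip1, the adaptor between Hsp70 and Hsp90, had an r of 0.625 (rho = 0.634) with Hsph1. Ahsa1, which speeds the Hsp90 cycle, had 0.575 (rho = 0.605) and Bag1, which releases clients from Hsp70, 0.503 (rho = 0.517). By batch, Stip1 stood at 0.703, 0.646 and 0.479, Ahsa1 at 0.597, 0.591 and 0.568 and Bag1 at 0.600, 0.50 and 0.455. The gene that fell was Fkbp5, a cochaperone of the glucocorticoid receptor (r = -0.319, and -0.120 in batch C).

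Of 15 genes of the unfolded protein response, 6 rose with Hsph1 and none fell (median r = 0.228), led by Pdia3, a disulphide isomerase (r = 0.517, rho = 0.517), and Xbp1, a factor of that response (r = 0.461, rho = 0.486), with 0.383 and 0.373 in batch C. With Hspa5 itself 3 of the 15 rose, Sdf2l1 (r = 0.403), Ddit3 (r = 0.368) and Pdia3 (r = 0.314). Of 6 genes of mitochondrial quality control, 1 rose with Hsph1, Timm17a (r = 0.420), and 2 fell, the protease gene Lonp1 at r = -0.50 and Tomm40 at r = -0.338, whose r was 0.165 in batch C. Both cold-induced RNA-binding genes fell, Rbm3 (r = -0.619, rho = -0.598; -0.601, -0.682 and -0.591 by batch) and Cirbp (r = -0.426, rho = -0.375; -0.597, -0.539 and -0.157). Of 7 prefoldin genes and CCT partners, 1 rose with Hsph1, Tcp1 (r = 0.406), which is also among the 6 of the HSF1 list.

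Among all other named genes the 8 closest to Hsph1 over 292 mice were Wdr78 (r = 0.786), Nrcam, a neuronal adhesion molecule (0.754), Pum3 (0.733), Slc2a4, the insulin-regulated glucose transporter (-0.732), Ccpg1 (0.727), Dbp, an output gene of the circadian clock (-0.708), Kcng2 (-0.692) and Cfdp1 (0.682). In batch C alone these had sizes of 0.432 to 0.628. Those closest to Hspa5 were all opposed to it, Zdhhc4 (-0.587), Mzf1 (-0.575), Tubgcp2 (-0.573), Wdr6 (-0.557) and Pcsk7 (-0.556).

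Markers of cell types are set against 10.8% of named genes that rose with Hsph1 and 9.75% that fell. Of 6 neuronal markers 3 rose, Syt1 (r = 0.451), Nefm (0.413) and Snap25 (0.397), and of 8 endothelial markers 3 rose, led by Tek (0.584). Of 8 astrocyte markers 2 rose and of 8 microglial markers 1 fell, and none of 9 oligodendrocyte, 4 erythrocyte, 5 pituitary and 5 ependymal markers was called. One of 7 choroid plexus markers, Ttr, rose (0.328). In batch C the r of Snap25 was -0.0582 and that of the endothelial Cdh5 -0.234, against 0.370 over all mice. With Hspa5, 1 marker on all these lists was called, Spag6l of ciliated ependyma (r = -0.363). What part the make-up of the tissue has in the relations above was not tested.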

How the data were processed

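Per the labels, RNA of each mouse was labelled with Cy3 and the pool with Cy5, with no dye swap. The deposited table gives every probe 1 value on each array, read here as the log10 of mouse over pool. How the authors analysed the images and normalized the values is not stated in the labels. Neither base nor direction is stated. Base 10 is likely from the limits at -2 and 2, and mouse over pool from the Y-linked gene Eif2s3y, which ran from -1.89 to 0.385: a gene absent from females can lie far below, not far above, a pool of both sexes. Correlations do not depend on either. Intensities were not used, so the stated precision depends on how many arrays there are.

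Of 23574 probes, 25 missing on more than 5% of arrays were left out and 252 missing values took the mean of their probe. Of the 13665 probes annotated to 1 gene, 12662 were given their current symbol through the gene identifiers of the GRCm38.p6 table; 48 had several genes and were not named. Of the 100 member probes, 3 kept the symbol of the platform annotation, among them the only probe of Dnajb11. Batches are sets of arrays that share their missing probes. Fits over all kept probes used limma 3.58.1 (R 4.3.3), p-values adjusted by Benjamini and Hochberg at 0.05, a fold of 1.2 for means and slopes and an r of 0.3 for relations. Mixtures used mclust 6.1.1, with a gain in the information criterion over 10. Spearman's rank correlations and permutation p (100000, within batches, two-sided) were computed on values with batch means removed. Both fits and mixtures were tested on simulated data, in which the noise of the probes was independent. The simulated levels lay further apart and were more equal in size than those called here, so that test does not cover them.

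Genes named with full values are the 4 reference genes, the 3 of largest SD per class, the 6 of largest r and up to 6 called negative per reference gene, the 4 largest batch differences and all with discrete levels, and of other genes the 3 called of largest r per list and the nearest 8 (Hsph1) or 5 (Hspa5). Members beyond these, mouse 67, mouse 95 and the pairs were chosen after their values were seen. The members, reference genes and lists were chosen with earlier results of these data known. Alternatives covered centring, scaling, thresholds, probe choice, batches, ranks, covariates and reference genes.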

Additional observations from a re-analysis of the deposited data

How the results depend on the processing

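Centring or scaling of the arrays kept every count of called genes within 1.5 times its value. Of the single relations, batch differences and slopes that were called, 82 in all, 828 values under an alternative kept direction and call in 724 cases, kept the direction without the call in 90 and turned in 14. The turned values were, in batch C alone, r with Hsph1 of Dnajc2 (-0.109) and Hspa13 (-0.0879), r with Cct2 of Dnaja1 (-0.0407), Dnajc12 (-0.0902), Dnajc7 (-0.0171), Hspa8 (-0.0140) and Hspe1 (0.0528), and slopes per 100 mouse numbers of Dnajc5 (-0.0368), Hsp90b1 (0.00240), Hspa1a (0.00515) and Hspa8 (0.00388). The others were the slope of Hsp90aa1 in batch A (0.0133), Dnaja4 with Hsph1 beside the first principal component (-0.0404) and Hspa1a with Hspa5 with no batch term (-0.0795). The causes were not tested.

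Counts that moved by more than 1.5 times were these. Away from the pool, 48 genes were called with no fold threshold and 12 in batch C alone (background 6.96%). Between batches, 48 were called with no fold threshold. With Dnajb1 as the reference in place of Hsph1, 4 genes rose. With Hspa5, 19 rose with no batch term, 18 in batch A alone, 22 with no minimum r and 21 with Hsp90b1 as the reference. With Hspd1, 11, 9 and 2 rose in batches A, B and C alone, 3 by ranks or with no minimum r, 7 with the mean of a gene's probes, 4 without the 2 mice and 9 with Hspe1 as the reference. With Cct2, 7 rose in batch C alone. Slopes on mouse number numbered 20 with no fold threshold, 4 in batch A and 3 in batch C. Discrete levels numbered 18 at 2 SDs, 1 at 4 SDs and 3 with batch means removed. The median r over pairs was -0.00460 with batch means kept and 0.0249, 0.0221 and 0.0105 in A, B and C. Shares over all probes were not computed for other reference genes, covariates, ranks, means of probes, mice left out, no batch term or no minimum r. Nor were they for slopes with no fold threshold or in single batches, or for levels under other settings. The counts under these settings therefore have no background. Each mouse has 1 array, and no signal over background was used.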
